A study of Mus musculus with 29 samples.

Results

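Ribosome biogenesis genes encode the polymerase, snoRNA-protein particles and assembly factors that make ribosomal RNA and build it into the 2 ribosomal subunits. The set described here is a fixed list of 40 such genes, of which 39 were measured among the 19938 genes with a probe set of their own. The exception was Rrp7a, a factor of the small subunit, which had no probe set assigned to it alone. Each gene was read from the probe set that carried that single symbol and had the highest mean over the 27 transfected arrays.

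All cells were C2C12, a mouse myoblast line that proliferates in serum and fuses into myotubes, taken at passage 27. A mimic is a synthetic double-stranded RNA that raises the amount of 1 microRNA in the cell. Proliferating cells received 50 nM of 1 of 7 mimics (miR-145, miR-365 and Let-7b, miR-34a and miR-22, or miR-29a and miR-1), or the AllStar negative control, and RNA was taken 36 h later. Each mimic has 3 arrays from 3 independent experiments, and the control has 3 arrays with 3 technical repeats, which were averaged by number to 3 values. That a repeat belongs to the control array of the same number is assumed from the titles. Every group is of wild-type cells of 1 line, with a single dose and time, and untransfected myoblasts at 70% confluence and terminally differentiated myotubes have 1 array each.

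Ribosomal RNA is transcribed by RNA polymerase I in the nucleolus as 1 long precursor. Box C/D and box H/ACA particles modify the precursor under the guidance of snoRNAs, and the U3 particle, the UTP-A and UTP-B complexes and further factors assemble on it as the small subunit processome. Other factors, the PeBoW complex among them, process the part that becomes the large subunit. The transcription factor Myc is known to raise many of these genes in growing cells, and muscle precursors make fewer new ribosomes as they leave the cell cycle.

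A microRNA lowers transcripts that pair with its seed, bases 2 to 8 from the 5′ end, so the mature sequences are shown first, with the seed in capitals. They are the RefSeq arms of GRCm38.p6 that are usually called by these names. The labels name no arm.
miR-34a-5p (chr4:150068473-150068494, plus strand): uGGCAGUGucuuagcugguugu
miR-22-3p (chr11:75463772-75463793, plus strand): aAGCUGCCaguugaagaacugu
miR-365-3p (chr11:79726467-79726488, plus strand, and 1 further locus): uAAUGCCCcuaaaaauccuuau
miR-29a-3p (chr6:31062673-31062694, minus strand): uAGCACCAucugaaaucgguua
let-7b-5p (chr15:85707325-85707346, plus strand): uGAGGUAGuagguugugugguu
The sequences of miR-1 and miR-145 were not in the sources used here and are not shown. The 5 seeds shown differ from each other. Seed matches in the transcripts of the 39 genes were not analysed here.

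The 39 genes were abundant in control cells. Values are log2 intensities, so a difference of 1 is a doubling. The median of the 39 control means was 10.44, against 7.8 over all genes, and 39 of 39 lay above the median of all genes. Nop10, a core protein of box H/ACA particles, had the highest control mean at 12.58 ± 0.05 (SD, n = 3). Utp3, a factor of the small subunit processome, had the lowest at 7.84 ± 0.08 (SD, n = 3). Intensities of different probe sets are not comparable as amounts of RNA, so this order describes signal and not transcript number. Markers of myogenic cells were high, with Myod1 at 12.03, Des at 13.16 and Chrna1 at 12.56 in the control. Medians of blood, endothelial and adipocyte markers were 6.39, 6.1 and 5.37, against 6.67 for probe sets with no listed gene, while the highest markers of other cell types were Tubb3 at 9.05 and Cd68 at 8.15.

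The untransfected myoblast array did not look like the control cells. All 20 of 20 myotube markers lay above the 3 control values there, with a median difference of 1.83, and 19 of 20 DNA replication genes lay below them, with a median difference of -0.4. Results that use it are given at the end, with that limit.

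Most of the 39 genes differed among the groups, by small amounts. In limma's F test over the 7 comparisons with the control, 36 of 39 passed an adjusted p of 0.05, which 49.4% of all genes also did. The exceptions were Ncl at an adjusted p of 0.062, Utp3 at 0.1 and Utp18 at 0.19. Bright genes pass more often: of the 10058 genes whose mean was at least that of the dimmest of the 39, 83.0% passed. Without replicate 3 of every group, 21 of the 39 passed. That fit has fewer values in every group, and the share of all genes passing it was not examined. The drop is therefore not shown to be particular to these genes.

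Against the control, 38 of 273 pairs of a gene and a mimic passed limma's test, 30 of them lower and 8 higher. Depending on the mimic, 3.0% to 10.5% of all genes were lower and 3.85% to 13.2% higher. Among the 10058 genes as bright as these, 5.79% to 18.9% were lower and 5.98% to 22.1% higher. In 38 of these 38 pairs the 3 mimic values lay wholly on 1 side of the 3 control values. The pairs had already passed a test on the same values, so this separation is no further support. Its share over all genes was not counted. The changes were modest: 1.81-fold at most, with 3 pairs past 1.5-fold. Of the 39, 15 genes passed under exactly 1 mimic, 10 under exactly 2, and Npm1 alone under 3. The same split over all genes was not counted. The 13 that passed under none were Polr1b, Rrp9, Wdr43, Wdr75, Heatr1, Utp18, Utp3, Nop14, Rrp8, Rrp15, Nop2, Gnl3 and Ddx21. The 7 comparisons share the same control samples, so they are not independent of each other.

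**Figure D1:**
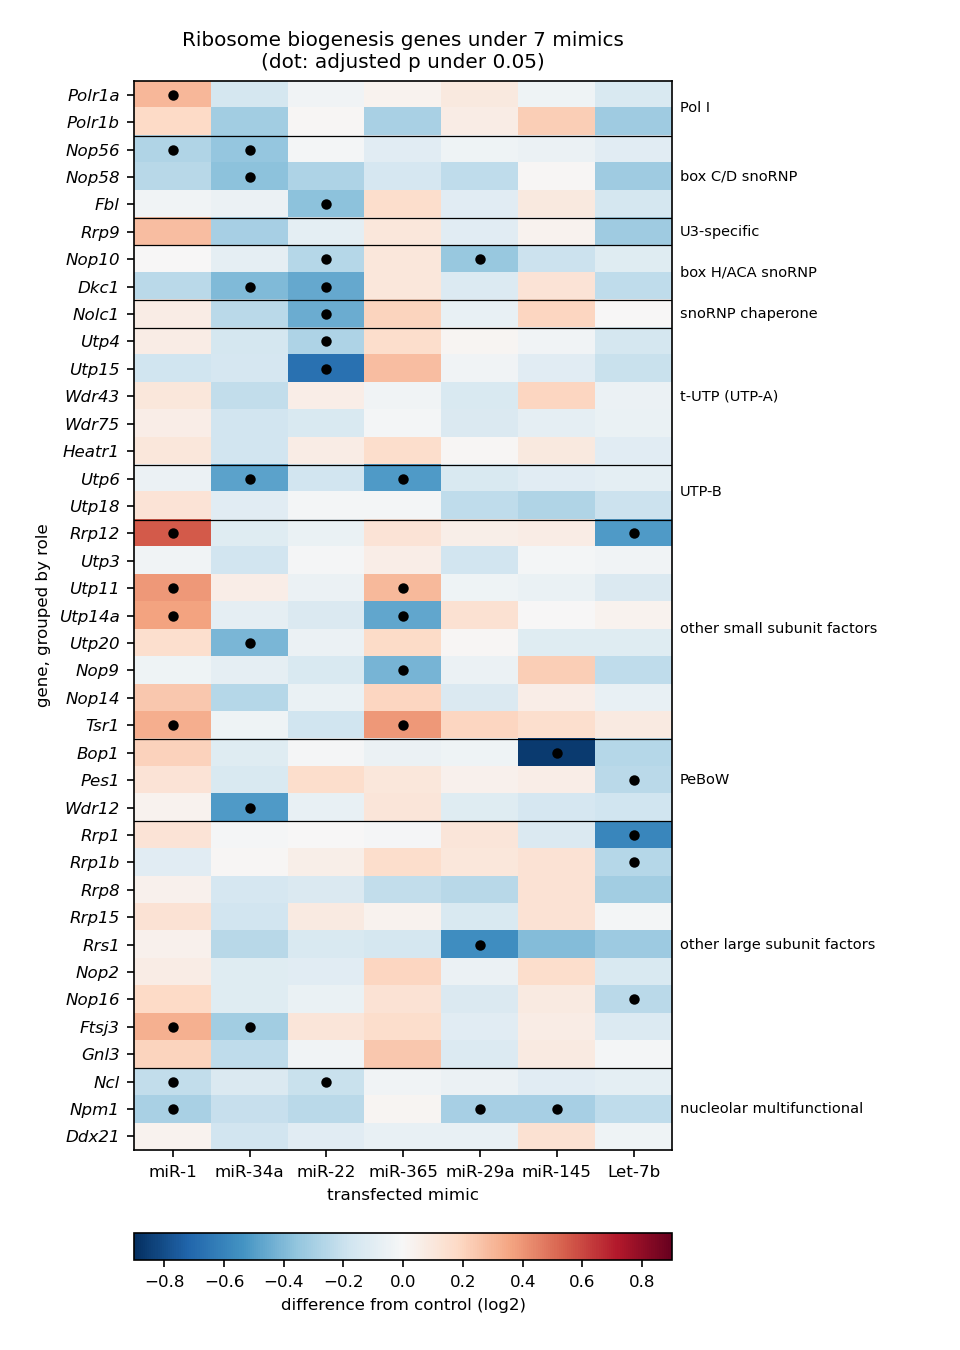
Fitted difference from control (log2 scale, colour) for 39 ribosome biogenesis genes (rows, grouped by role) under 7 mimics (columns), with a dot where limma's adjusted p was under 0.05. Of 38 dots, 30 mark lower and 8 mark higher values, and Bop1 under miR-145 is the deepest decrease at -0.86.

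The mimics differed in how many of the 39 genes fell or rose. The miR-34a mimic lowered 7 of 39 and raised 0, where 6.06% of all genes were lower and 5.62% higher. The miR-22 mimic also lowered 7 and raised 0, where the shares of all genes were 5.67% lower and 8.82% higher. The Let-7b mimic lowered 5 and raised 0, where 5.46% of all genes were lower and 5.46% higher. The miR-1 mimic lowered 3 and raised 6, where 10.5% of all genes were lower and 13.2% higher. The miR-365 mimic lowered 3 and raised 2, where 8.33% were lower and 11.7% higher. The miR-29a mimic lowered 3 and raised 0, where 4.78% were lower and 5.54% higher. The miR-145 mimic lowered 2 and raised 0, where 3.0% were lower and 3.85% higher.

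As shares of the 39 genes, the lower calls came to 17.9% under miR-34a and under miR-22, 12.8% under Let-7b and 7.69% under miR-1. Among the 10058 genes as bright as these, a comparison chosen after the values were seen, 11.4% were lower under miR-34a, 10.6% under miR-22, 10.4% under Let-7b and 18.9% under miR-1. The lower calls were thus about 1 to 3 genes above that background under miR-34a, miR-22 and Let-7b. Under miR-1 they were below it. So were the lower shares under miR-365 (7.69% against 15.2%), miR-29a (7.69% against 9.06%) and miR-145 (5.13% against 5.79%). The higher shares under miR-1 (15.4% against 22.1%) and miR-365 (5.13% against 20.6%) also lay below those of equally bright genes. No gene of the 39 rose under miR-34a, miR-22, miR-29a, miR-145 or Let-7b, where 9.06%, 14.6%, 9.04%, 5.98% and 8.97% of equally bright genes did. At an unadjusted p under 0.05 in limma, 0 of the 39 were higher under miR-34a, miR-29a and Let-7b, 1 under miR-22 and 3 under miR-145.

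Counts miss shifts that are too small for a single gene, so the direction over the 39 genes was also counted. Under miR-34a, 37 of 39 differences were below 0, with a median of -0.17. Under Let-7b, 36 were below 0, with a median of -0.14, and under miR-22, 31 were, with a median of -0.07. Under miR-29a, 28 were below 0, with a median of -0.07. The medians under miR-1, miR-365 and miR-145 were 0.07, 0.10 and 0.03, with 12, 15 and 17 genes below 0. Single samples moved some of these: the miR-365 median was 0.05 without replicate 1 and 0.03 without replicate 2, and the miR-1 median was 0.12 without replicate 2. The miR-29a median was -0.01 without replicate 2 and -0.14 without replicate 3, and the miR-145 median -0.01 without replicate 1 and 0.06 without replicate 2. Medians over all genes lay between -0.01 and 0.04. The share of all genes, or of equally bright genes, with a difference below 0 was not counted. The direction counts are therefore not shown to be particular to these genes.

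The separate experiments differed in this shift. The median over the 39 genes, relative to the control mean, was -0.11, -0.24 and -0.18 in the 3 miR-34a samples and -0.07, -0.09 and -0.11 in the 3 miR-22 samples. In the 3 Let-7b samples it was -0.04, -0.22 and -0.14. It was 0.08, 0.00 and 0.19 under miR-1, and -0.06, -0.19 and 0.06 under miR-29a. The miR-34a and miR-22 samples and the Let-7b samples all lay below the control range of -0.03 to 0.01, while the miR-29a samples lay on both sides of it. That range is narrow by design: each control value averages an array with its technical repeat, and their own mean was subtracted. The Let-7b sample at -0.04 lay only just below it.

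Same-numbered samples deviated together for miR-22, miR-29a, miR-34a and miR-365, and a model with the replicate number as a block gave more calls there. With the replicate block, 15 genes were lower under miR-34a (8.83% of all genes), 5 lower (10.4%) and 7 higher (15.3%) under miR-365, and 5 lower under miR-29a (7.02%).

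RNA polymerase I was measured by the genes of its 2 largest subunits. Polr1a (chr6:71909053-71979435), the catalytic subunit, rose under miR-1. Its 3 miR-1 values were 10.19, 10.16 and 10.29, and its control values 9.91, 9.95 and 9.87. The groups did not overlap, and the difference was 0.30 ± 0.06 (SE; limma's adjusted p = 0.00029), or 1.23-fold. Polr1b, the second-largest subunit, passed under no mimic, and its control values of 10.6, 10.44 and 10.27 were more spread than those of any other gene of the set.

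Box C/D particles carry the 2′-O-methyltransferase fibrillarin on a Nop56 and Nop58 scaffold, and each of these 3 genes fell under at least 1 mimic. Nop56 (chr2:130274367-130279313) read 12.25, 12.25 and 12.28 in the control. It read 11.91, 11.91 and 11.89 under miR-34a and 12.01, 12.02 and 11.95 under miR-1. The samples of each group were tightly spaced, and both mimics lay below every control value. The decreases were -0.35 ± 0.05 (SE; limma's adjusted p = 8.3e-05) under miR-34a and -0.27 ± 0.05 (adjusted p = 0.00064) under miR-1.

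Nop58 differed from the control by -0.37 ± 0.11 under miR-34a (limma's adjusted p = 0.033). That call was lost without any 1 of the 3 miR-34a samples, without control 2 or without control 3, with adjusted p from 0.069 to 0.16. Fbl, which encodes fibrillarin, read 10.59, 10.57 and 10.59 under miR-22 against 10.86, 10.99 and 11.01 in the control. The decrease was -0.37 ± 0.07 (adjusted p = 0.0011), and a second Fbl probe set gave -0.30. Rrp9, the protein specific to the U3 box C/D particle, passed under no mimic, with differences from -0.32 under Let-7b to 0.28 under miR-1.

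Box H/ACA particles convert uridines to pseudouridine. Dkc1 encodes dyskerin, their pseudouridine synthase. It read 10.01, 9.98 and 10.03 in the control. Its values were 9.54, 9.65 and 9.45 under miR-22 and 9.75, 9.48 and 9.58 under miR-34a, all below the control. The decreases were -0.46 ± 0.10 (SE; limma's adjusted p = 0.0021) and -0.40 ± 0.10 (adjusted p = 0.0076). Nop10 read 12.32, 12.22 and 12.18 under miR-29a, against 12.59, 12.62 and 12.52 in the control, a decrease of -0.34 ± 0.07 (adjusted p = 0.0015). Under miR-22 Nop10 was lower by -0.26 ± 0.07 (adjusted p = 0.0089), with an adjusted p of 0.078 without miR-22 replicate 3.

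Nolc1 encodes a nucleolar phosphoprotein that acts as a chaperone of snoRNA particles. It read 10.2, 10.19 and 9.97 under miR-22 and 10.57, 10.61 and 10.53 in the control. The difference was -0.45 ± 0.08 (SE; limma's adjusted p = 0.00049). Of the 6 genes for box C/D, box H/ACA and the chaperone, miR-22 thus lowered Fbl, Dkc1, Nop10 and Nolc1, while miR-34a lowered Nop56, Nop58 and Dkc1.

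The UTP-A complex binds the nascent precursor first and also takes part in its transcription. Utp15 (chr13:98246845-98262992), one of its 5 measured subunits, had the deepest decrease under miR-22. It read 9.05, 9.02 and 8.93 there and 9.76, 9.62 and 9.64 in the control. The 3 miR-22 samples were the lowest of all 24 values, at a difference of -0.67 ± 0.12 (SE; limma's adjusted p = 0.00054), or 1.6-fold. Utp4, another subunit, was lower under miR-22 by -0.28 ± 0.07 (adjusted p = 0.012), which was lost without miR-22 replicate 3 (0.059) or control 1 (0.057). The subunits Wdr43, Wdr75 and Heatr1 passed under no mimic.

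UTP-B was measured by Utp6 and Utp18. Utp6 (chr11:79933956-79962387) fell under 2 mimics by like amounts. Its control values were 9.83, 9.76 and 9.88. It read 9.44, 9.31 and 9.27 under miR-34a and 9.33, 9.38 and 9.23 under miR-365. No value of either mimic reached the control, and the differences were -0.48 ± 0.07 (SE; limma's adjusted p = 3.5e-05) and -0.51 ± 0.07 (adjusted p = 8.7e-06). Utp18 had no call.

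Among the other factors of the small subunit, Rrp12 and Utp14a moved in opposite directions under different mimics. Rrp12 (chr19:41859483-41896153), a HEAT-repeat protein needed for export of both subunits, read 9.2, 9.08 and 9.11 in the control. It rose under miR-1, where it read 9.59, 9.58 and 9.86, and fell under Let-7b, where it read 8.86, 8.49 and 8.53. Neither mimic overlapped the control. The differences were 0.55 ± 0.10 (SE; limma's adjusted p = 0.00013) and -0.51 ± 0.10 (adjusted p = 0.00082).

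Utp14a (chrX:48256934-48282450), a component of the processome, read 8.41, 8.44 and 8.43 in the control. It read 8.09, 8.04 and 7.72 under miR-365, a decrease of -0.47 ± 0.10 (SE; limma's adjusted p = 0.0017). Under miR-1 it read 8.73, 8.57 and 9.06, higher by 0.36 ± 0.10 (adjusted p = 0.011). That increase was lost without miR-1 replicate 3 (0.12) and in a model of these 2 groups alone (0.066). Nop9, an RNA-binding protein of the pre-18S RNA, read 8.88, 9.02 and 8.72 under miR-365 against 9.32, 9.27 and 9.28 in the control, lower by -0.42 ± 0.08 (adjusted p = 0.0007).

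Tsr1 and Utp11 rose under both miR-1 and miR-365. Tsr1, a factor of late cytoplasmic maturation of the small subunit, read 10.67, 10.48 and 10.56 under miR-365 against 10.26, 10.14 and 10.15 in the control. All 3 values lay above the control, at a difference of 0.39 ± 0.10 (SE; limma's adjusted p = 0.0054). Under miR-1 Tsr1 was higher by 0.33 ± 0.10 (adjusted p = 0.015), but the call was lost without miR-1 replicate 1 or 3 or control 2 or 3, with adjusted p from 0.055 to 0.082. Utp11, a processome component, read 9.73, 9.72 and 9.89 under miR-1 and 9.4, 9.38 and 9.39 in the control, higher by 0.39 ± 0.08 (adjusted p = 0.00071). Under miR-365 it was higher by 0.29 ± 0.08 (adjusted p = 0.011), or 0.057 without the technical repeats of the control.

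Utp20, a large scaffold protein of the processome, fell under miR-34a. It read 9.97, 9.73 and 9.87 there and 10.38, 10.15 and 10.26 in the control, a difference of -0.41 ± 0.10 (SE; limma's adjusted p = 0.0076). The processome genes Utp3 and Nop14 passed under no mimic.

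PeBoW is made of Pes1, Bop1 and Wdr12, and each of the 3 genes fell under a different mimic. Bop1 (chr15:76452988-76477249) had the largest change of the whole set. It read 11.05, 11.02 and 10.52 under miR-145, against 11.61, 11.75 and 11.79 in the control and 11.44 or more in all samples of the other 6 mimics. The 3 miR-145 samples were the lowest of all, and the difference was -0.86 ± 0.10 (SE; limma's adjusted p = 6.4e-06), or 1.81-fold. Wdr12 (chr1:60071361-60098500) read 9.65, 9.49 and 9.74 under miR-34a and 10.08, 10.08 and 10.23 in the control. It was lower by -0.51 ± 0.10 (adjusted p = 0.0012), and its second probe set gave -0.53.

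Pes1 was lower under Let-7b by -0.24 ± 0.08 (limma's adjusted p = 0.04). The call was lost without Let-7b replicate 1 or 2 or any 1 control, with adjusted p from 0.055 to 0.22.

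**Figure D2:**
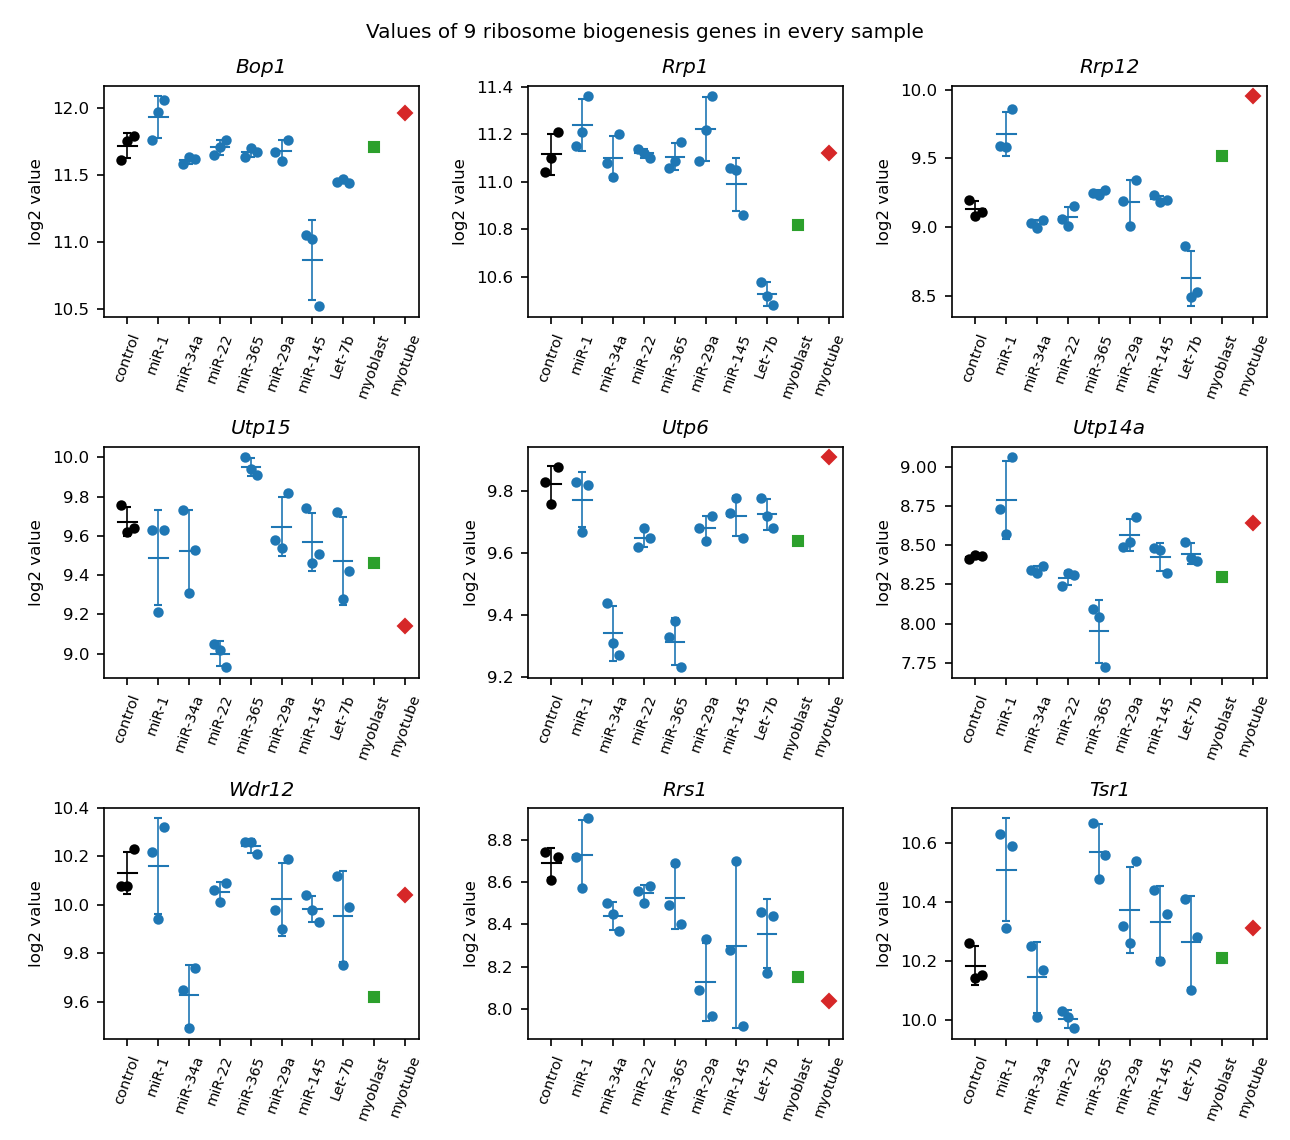
Log2 values of 9 ribosome biogenesis genes in every sample (points) of the control, 7 mimics and the single myoblast and myotube arrays, with the mean and SD of 3 values per transfected group. Bop1 is low under miR-145, Rrp1 and Rrp12 under Let-7b, Utp15 under miR-22, Utp6 under miR-34a and miR-365, Utp14a under miR-365 and Wdr12 under miR-34a.

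Among the other factors of the large subunit, Rrp1 (chr10:78400362-78413043), the homologue of a yeast precursor-processing protein, had the largest decrease under Let-7b. It read 10.58, 10.52 and 10.48 there and 11.04, 11.1 and 11.21 in the control. All 3 values lay below those of every other transfected sample, and the difference was -0.59 ± 0.07 (SE; limma's adjusted p = 1e-05), or 1.5-fold. Its relative Rrp1b was lower under Let-7b by -0.26 ± 0.08 (adjusted p = 0.043). That call was lost without Let-7b replicate 2 or 3 or control 1 or 3, with adjusted p from 0.097 to 0.2.

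Nop16, a large subunit factor, was lower under Let-7b by -0.24 ± 0.07 (limma's adjusted p = 0.033), and was lost without Let-7b replicate 2 or 3 or any 1 control (0.069 to 0.13). The count of 5 lower genes under Let-7b fell to 2 without Let-7b replicate 2 or without control 3, and to 3 without Let-7b replicate 3, control 1 or control 2. Rrp1 and Rrp12 kept their calls in each of these.

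Rrs1 (chr1:9545408-9547455), which helps to load the 5S particle on the large subunit, was lowest under miR-29a. It read 8.09, 8.33 and 7.97 there and 8.74, 8.61 and 8.72 in the control. The difference was -0.56 ± 0.14 (SE; limma's adjusted p = 0.0091), with an adjusted p of 0.064 without miR-29a replicate 3. Its 3 miR-145 values of 8.28, 8.7 and 7.92 were the most spread of its groups.

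Ftsj3, a ribose methyltransferase of the precursor, moved in opposite directions under 2 mimics. It read 9.93, 9.91 and 9.92 in the control. It was 9.71, 9.56 and 9.56 under miR-34a and 10.26, 10.12 and 10.35 under miR-1. The differences were -0.31 ± 0.08 (SE; limma's adjusted p = 0.0081) and 0.32 ± 0.08 (adjusted p = 0.0027). Rrp8, Rrp15, Nop2 and Gnl3 passed under no mimic.

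Nucleolin, nucleophosmin and the helicase Ddx21 act at several steps and were near the top of the signal range. Npm1, the nucleophosmin gene, was called lower under 3 mimics, more than any other gene of the set. Its control values were 11.88, 11.97 and 11.84. It read 11.71, 11.48 and 11.64 under miR-1, 11.48, 11.68 and 11.63 under miR-29a, and 11.74, 11.63 and 11.44 under miR-145. No value of these mimics reached the control range. The differences were -0.29 ± 0.09 (SE; limma's adjusted p = 0.021), -0.30 ± 0.09 (adjusted p = 0.032) and -0.30 ± 0.09 (adjusted p = 0.049).

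All 3 Npm1 calls depended on single samples. Under miR-1 the call was lost without miR-1 replicate 2 (adjusted p of 0.11 in limma) or control 2 (0.095). Under miR-29a it was lost without miR-29a replicate 1 or 3 or any 1 control (0.056 to 0.14). Under miR-145 it was lost without miR-145 replicate 2 or 3 or any 1 control (0.076 to 0.28). The count of lower genes was then 1 in place of 2 under miR-145 without miR-145 replicate 3 or any 1 control.

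Ncl, the nucleolin gene, was lower under miR-1 by -0.22 ± 0.07 (limma's adjusted p = 0.018) and under miR-22 by -0.20 ± 0.07 (adjusted p = 0.043). The first call was lost without miR-1 replicate 2 or control 3 (0.088 and 0.085). The second was lost without miR-22 replicate 1 or 3 or any 1 control (0.073 to 0.17). The count of lower genes was 1 in place of 3 under miR-1 without miR-1 replicate 2, 4 in place of 7 under miR-22 without miR-22 replicate 3, and 1 in place of 3 under miR-29a without miR-29a replicate 3. Ddx21 had no call.

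Each mimic was also compared with the mean of the other 6, which uses no control sample. Its standard errors were smaller, more of all genes passed under each of the 7 mimics, and the medians of the 39 genes spanned -0.14 to 0.16, against -0.17 to 0.10 with the control. The miR-34a mimic was lower in 15 of 39 genes and higher in 0, where 8.18% of all genes were lower and 5.9% higher, and 14.8% and 10.0% of equally bright genes were. At an unadjusted p under 0.05 the higher count was also 0. The largest differences were Wdr12 at -0.45 ± 0.08 (SE; limma's adjusted p = 0.00021), Utp20 at -0.42 ± 0.08 (adjusted p = 0.00041) and Ftsj3 at -0.39 ± 0.06 (adjusted p = 6.1e-05). The lower genes included both polymerase genes, Polr1a and Polr1b, neither of which was called lower against the control. Without miR-34a replicate 2 the count was 7, and without replicate 3 it was 8.

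The miR-1 mimic was lower in 1 gene, Nop56, and higher in 18, where 13.7% of all genes were lower and 15.0% higher, and 25.8% of equally bright genes were higher. Rrp12 led at 0.62 ± 0.07 (SE; limma's adjusted p = 7.7e-07), with Utp14a at 0.45 ± 0.08 (adjusted p = 9.8e-05) and Bop1 at 0.43 ± 0.07 (adjusted p = 8.1e-05). The mean behind the Bop1 value includes the low miR-145 samples, that of Utp14a the low miR-365 samples and that of Rrp12 the low Let-7b samples. Against the control Bop1 was 0.21 under miR-1 and was not called. In that comparison 6 of the 39 genes were called higher under miR-1, Rrp12 and Utp14a among them. Without miR-1 replicate 3, 8 of the 39 passed in place of 19.

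The miR-365 mimic was lower in 4 genes and higher in 16, where 11.3% of all genes were lower and 15.8% higher, and 28.4% of equally bright genes were higher. Utp15 was the highest at 0.50 ± 0.09 (SE; limma's adjusted p = 0.00029), then Dkc1 at 0.33 ± 0.08 (adjusted p = 0.0019) and Tsr1 at 0.30 ± 0.07 (adjusted p = 0.0036). The means behind the Utp15 and Dkc1 values include the low miR-22 samples. Of these genes, only Tsr1 was also called higher against the control. The 4 lower genes were Utp14a at -0.52, Nop9 at -0.36, Utp6 at -0.33 and Polr1b at -0.26. Without miR-365 replicate 1 the total was 12 in place of 20.

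The miR-22 mimic was lower in 7 genes and higher in 2, Pes1 and Nop56, where 6.33% of all genes were lower and 9.45% higher. Of equally bright genes, 10.6% were lower and 16.3% higher. Utp15 at -0.61 ± 0.09 (SE; limma's adjusted p = 6e-05), Nolc1 at -0.48 ± 0.06 (adjusted p = 8.3e-06) and Tsr1 at -0.36 ± 0.07 (adjusted p = 0.0012) led the decreases. The mean behind the Tsr1 value includes the high miR-1 and miR-365 samples. Against the control Tsr1 was -0.18 under miR-22 and was not called. Without miR-22 replicate 3 the total was 5 in place of 9.

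The Let-7b mimic was lower in 9 genes and higher in 1, Utp6 at 0.15, where 10.3% of all genes were lower and 8.19% higher. Of equally bright genes, 18.2% were lower and 14.0% higher. The mean behind the Utp6 value includes the low miR-34a and miR-365 samples. Against the control Utp6 was -0.09 under Let-7b and was not called. Rrp12 at -0.61 ± 0.07 (SE; limma's adjusted p = 2e-06), Rrp1 at -0.60 ± 0.06 (adjusted p = 7.6e-08) and Rrp1b at -0.32 ± 0.06 (adjusted p = 0.0007) led.

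The miR-145 mimic was lower in 1 gene, Bop1 at -0.81 ± 0.07 (limma's adjusted p = 1.3e-07), and higher in 9, where 8.59% of all genes were lower and 10.3% higher. Of equally bright genes, 15.4% were lower and 15.6% higher. Nop9 at 0.38, Dkc1 at 0.35 and Polr1b at 0.33 led the increases, and without miR-145 replicate 3 the total was 6 in place of 10. Against the control, none of the 39 genes was called higher under miR-145. The miR-29a mimic was lower in Rrs1 (-0.35) and Nop10 (-0.25) and higher in Rrp1 (0.21), where 8.26% of all genes were lower and 8.8% higher. Of equally bright genes, 14.7% were lower and 15.3% higher. The mean behind the Rrp1 value includes the low Let-7b samples.

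A further 116 genes of the pathway, from a list of 122, gave the wider picture, here against the control. Under miR-34a, 19 were lower and 0 higher, with a median of -0.13, and under Let-7b 11 were lower and 0 higher, with a median of -0.09. Against the control both mimics thus had no higher gene in either list, and at an unadjusted p under 0.05 in limma 1 and 3 of the 116 were higher. Bysl, a factor of late small subunit maturation, was the deepest under miR-34a at -0.76 ± 0.12 (SE; limma's adjusted p = 7.6e-05). Under Let-7b the deepest was Polr1d, a subunit shared by RNA polymerases I and III, at -0.74 ± 0.09 (adjusted p = 4.6e-06).

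Under miR-365, 33 of the 116 were higher and 7 lower, with a median of 0.14. Noc3l was highest at 0.62, while the nucleolar GTPase gene Gnl3l fell by 1.58 ± 0.11 on the log2 scale (limma's adjusted p = 4.4e-10) and the processome gene Wdr46 by 1.37 ± 0.10 (adjusted p = 2.9e-09). These 2 decreases, 3.0-fold and 2.58-fold, exceeded any change among the 39 genes. The share of higher genes was 28.4%, against 20.6% of the equally bright genes.

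Under miR-1, 19 of the 116 were higher and 10 lower, with Gnl3l again the lowest at -0.74. These shares of 16.4% and 8.62% lay below the 22.1% and 18.9% of equally bright genes. Under miR-22, 12 were lower (10.3%) and 4 higher (3.45%), led by Nol6 at -0.57, where 10.6% and 14.6% of equally bright genes were. Under miR-29a, 11 were lower (9.48%) and 2 higher (1.72%), led by Lyar at -0.56, where 9.06% and 9.04% of equally bright genes were. Under miR-145, 3 were lower (Ruvbl2, Nufip1 and Pno1) and 1 higher (Polr1e), where 5.79% and 5.98% of equally bright genes were. For miR-34a and Let-7b above, the lower shares were 16.4% and 9.48%, against 11.4% and 10.4% of equally bright genes.

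Of 59 genes for the ribosomal proteins themselves, at most 4 passed in 1 direction under any mimic against the control, and medians lay between -0.07 under miR-29a and 0.03 under miR-365. Against the mean of the other 6, 12 of the 59 (20.3%) were higher under miR-365, with a median of 0.07. In that comparison 15.8% of all genes were higher. So were 28.4% of the equally bright genes used above, which were chosen by the level of the ribosome biogenesis genes. The share of ribosomal protein genes thus lay above the first and below the second. At most 4 of the 59 passed in 1 direction under each other mimic.

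**Figure D3:**
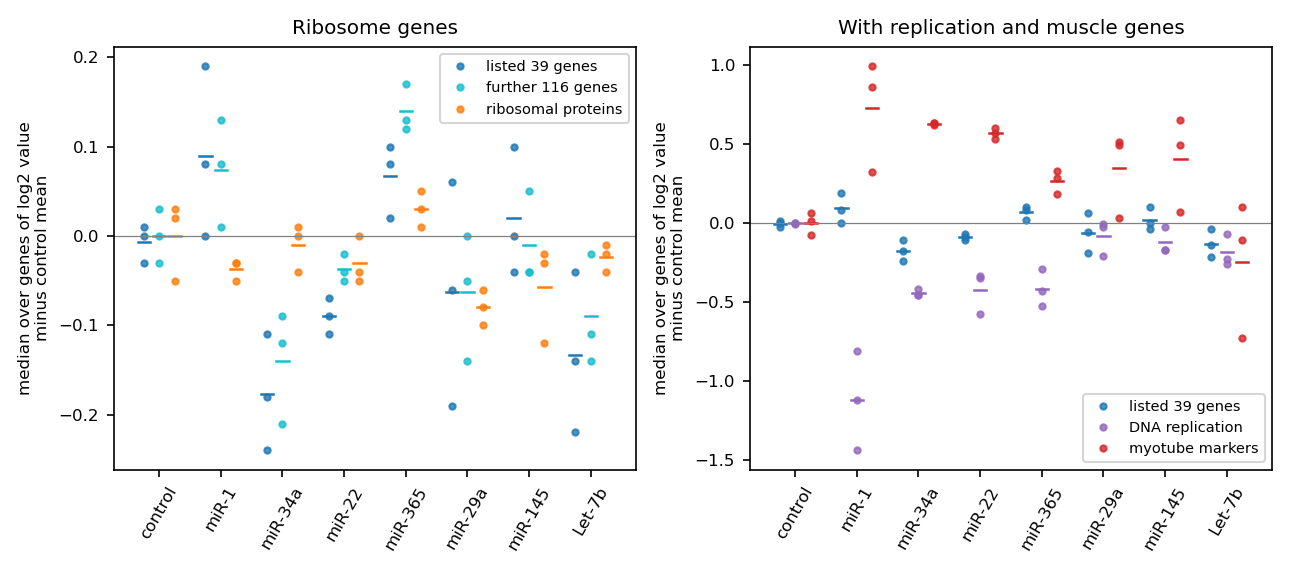
Median over each gene list of the log2 value minus the control mean (vertical axis), for each sample (points) of the control and the 7 mimics, with group means as bars. Left, the 39 ribosome biogenesis genes lie at -0.24 to -0.11 under miR-34a while ribosomal protein genes lie within 0.12 of 0. Right, DNA replication genes reach -1.44 under miR-1, where the medians of the 39 genes lie between 0.00 and 0.19.

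Replication and muscle genes moved with some of these shifts and are given beside them. Of 20 DNA replication genes, 19 fell under miR-1 (median -1.09), 15 under miR-34a (-0.45), 12 under miR-22 (-0.46) and 15 under miR-365 (-0.43). Under miR-29a 0 fell, in limma at the adjusted and at the unadjusted threshold, and under miR-145 and Let-7b 1 each, with medians of -0.09, -0.12 and -0.21. The median of the 39 genes was 0.07 under miR-1 and 0.10 under miR-365, whereas it was -0.17 under miR-34a and -0.07 under miR-22. These mimics shared the direction for replication genes and had medians on both sides of 0 for ribosome biogenesis genes. The medians above 0 were slight: single samples gave 0.08, 0.00 and 0.19 under miR-1 and 0.10, 0.08 and 0.02 under miR-365. Any relation between these lists was not tested.

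Myotube markers rose in 14 of 20 under miR-1, 10 under miR-34a, 9 under miR-22, 6 under miR-29a, 4 under miR-145 and 1 under miR-365, and fell in 3 under Let-7b. The part of cell cycle exit or muscle differentiation in the values of the 39 genes was not tested. In bulk RNA, fewer cells that express a gene and less of its RNA per cell cannot be told apart.

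The Myc network, which acts on the CACGTG motif, was measured for 9 genes. Myc itself passed under no mimic: its difference was -0.54 ± 0.22 under miR-22 (SE; limma's adjusted p = 0.12), -0.45 under miR-34a and 0.10 under Let-7b. Max, the partner of Myc, was lower under miR-1 (-0.61 ± 0.10, adjusted p = 8.3e-05) and miR-22 (-0.39 ± 0.10, adjusted p = 0.01) and higher under miR-365 (0.39 ± 0.10, adjusted p = 0.0084). Mxd4, a repressor that also binds Max, was higher under miR-365 (0.86), miR-34a (0.66), miR-1 (0.50) and Let-7b (0.38). Mxd3, of the same family, was lower under miR-1 (-0.91), miR-365 (-0.84) and miR-34a (-0.46). Mxi1 was higher under Let-7b (0.49) and miR-1 (0.24), and Mga under miR-1 (0.41) and Let-7b (0.32). Among the mimics that raised Mxd4, the median of the 39 genes was above 0 under miR-365 and miR-1. It was below 0 under miR-34a and Let-7b. Any part of Mxd4 or of the other genes of this network in the values of the 39 genes was not tested.

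Promoters of the 39 genes were searched for CACGTG, which reads the same on both strands, in the 300 bases from 250 before to 50 after the RefSeq start. Of the 32 with a promoter in the table, 7 held it, or 21.88%, against 8.4% of 15563 promoters of all measured genes and 17.53% of 97 promoters of the further pathway genes. Ribosomal protein genes had it in 8.51% of 47. The CCAAT motif, on either strand, was in 34.38% of the 32 and 38.26% of all. The 7 windows are shown on the strand of the gene in GRCm38.p6, with CACGTG in capitals.
Nop2 (chr6:125131813-125131838, plus strand): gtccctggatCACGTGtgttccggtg
Pes1 (chr11:3963967-3963992, plus strand): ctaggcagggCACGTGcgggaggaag
Tsr1 (chr11:74898094-74898119, plus strand): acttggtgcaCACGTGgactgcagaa
Utp18 (chr11:93885771-93885796, minus strand): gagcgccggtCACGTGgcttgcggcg
Utp20 (chr10:88826765-88826787, minus strand): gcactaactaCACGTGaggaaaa
Utp4 (chr8:106893645-106893670, plus strand): cgcaagcgcgCACGTGgggccggggc
Wdr43 (chr17:71616222-71616247, plus strand): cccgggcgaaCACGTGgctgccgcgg
Calls among the genes with the motif differed between mimics. Their differences from the control ran from 0.07 to 0.33 under miR-1, from -0.28 to 0.16 under miR-22 and from -0.24 to 0.08 under Let-7b. Any shared shift of these genes was not tested. Tsr1 rose under miR-1 and miR-365, whereas Pes1 fell under Let-7b, Utp20 under miR-34a and Utp4 under miR-22, and Nop2, Utp18 and Wdr43 had no call. The calls of Pes1, of Utp4 and of Tsr1 under miR-1 were among those lost without single samples. A match is a run of letters and no evidence of binding.

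Several of the 39 genes also carry snoRNA genes within their bounds. RefSeq places 19 in 7 of them: 5 in Nop56, 4 in Nop58, 3 each in Gnl3 and Wdr43, 2 in Ncl, and 1 each in Dkc1 and Tsr1. Of these, 4 were measured. Snord57, a box C/D snoRNA within Nop56, was lower under miR-22 (-0.60 ± 0.12 SE, limma's adjusted p = 0.0013), miR-1 (-0.53 ± 0.12, adjusted p = 0.0019), miR-145 (-0.47), Let-7b (-0.44) and miR-29a (-0.41). Its differences under miR-365 and miR-34a were -0.24 and -0.21 and did not pass. Many other snoRNA genes also lay lower. Of the 51 measured anywhere, 46 were below the control under miR-22, with a median of -0.25, and 44 under miR-1, with -0.26. Under miR-34a 44 were (-0.20), under miR-29a 38 (-0.13), under miR-145 30 (-0.05), under Let-7b 30 (-0.03) and under miR-365 25 (0.01).

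Nop56 itself was lower under miR-1 and miR-34a only, so host and snoRNA were called together under miR-1 alone. A probe set for a snoRNA can also hybridise to the unspliced host transcript. The other 3, Snora75 and Snord82 in Ncl and Snord53 in Wdr43, passed under no mimic.

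In the untransfected cells the 39 genes differed little between the myotube and the myoblast array. There is 1 array of each, so no test was possible. None of the 39 differed by 1.5-fold, where 6.11% of all genes were lower and 7.42% higher in the myotube. The median difference was -0.01, with 21 genes lower and 18 higher. At a looser threshold of 0.32 on the log2 scale, 7 were lower and 3 higher, where 16.0% and 16.8% of all genes were.

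The lowest in the myotube were Utp20 at 9.42 against 9.88, Nop56 at 11.6 against 12.07 and Npm1 at 10.86 against 11.32, differences of -0.47, -0.47 and -0.46. Fbl, Dkc1 and Rrp8 followed at -0.42, -0.38 and -0.35. The highest were Rrp12 at 9.95 against 9.52, a difference of 0.43, and Wdr12 at 10.04 against 9.62, a difference of 0.42. Utp14a, Polr1a, Rrp1 and Ftsj3 followed at 0.34, 0.31, 0.30 and 0.28. Nop56, Nop58 and Fbl of box C/D particles all lay lower in the myotube, while both polymerase genes lay at or above the myoblast.

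On the same 2 arrays, 18 of 20 DNA replication genes were lower by 1.5-fold, with a median of -1.11, and 15 of 20 myotube markers were higher, with a median of 0.98. The myoblast array itself already had a median of 11.41 for the myotube markers, against 9.79 in the control, with Myog at 11.56 against 9.76. The contrast therefore does not start from cells without these markers.

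Against the control cells, the myoblast array was lower in most of the 39 genes. It lay below all 3 control values in 26 genes, above them in 3 (Rrp12, Polr1b and Nop2) and within their range in 10. Over all genes it lay below in 33.7% and above in 34%. The median difference of control minus myoblast was 0.18 over the 39 genes and -0.01 over all genes. Npm1 was 11.32 in the myoblast and 11.84 to 11.97 in the control, and Nop58 was 10.07 and 10.47 to 10.74. Transfection, batch and the state of the cells cannot be told apart in this contrast.

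**Figure D4:**
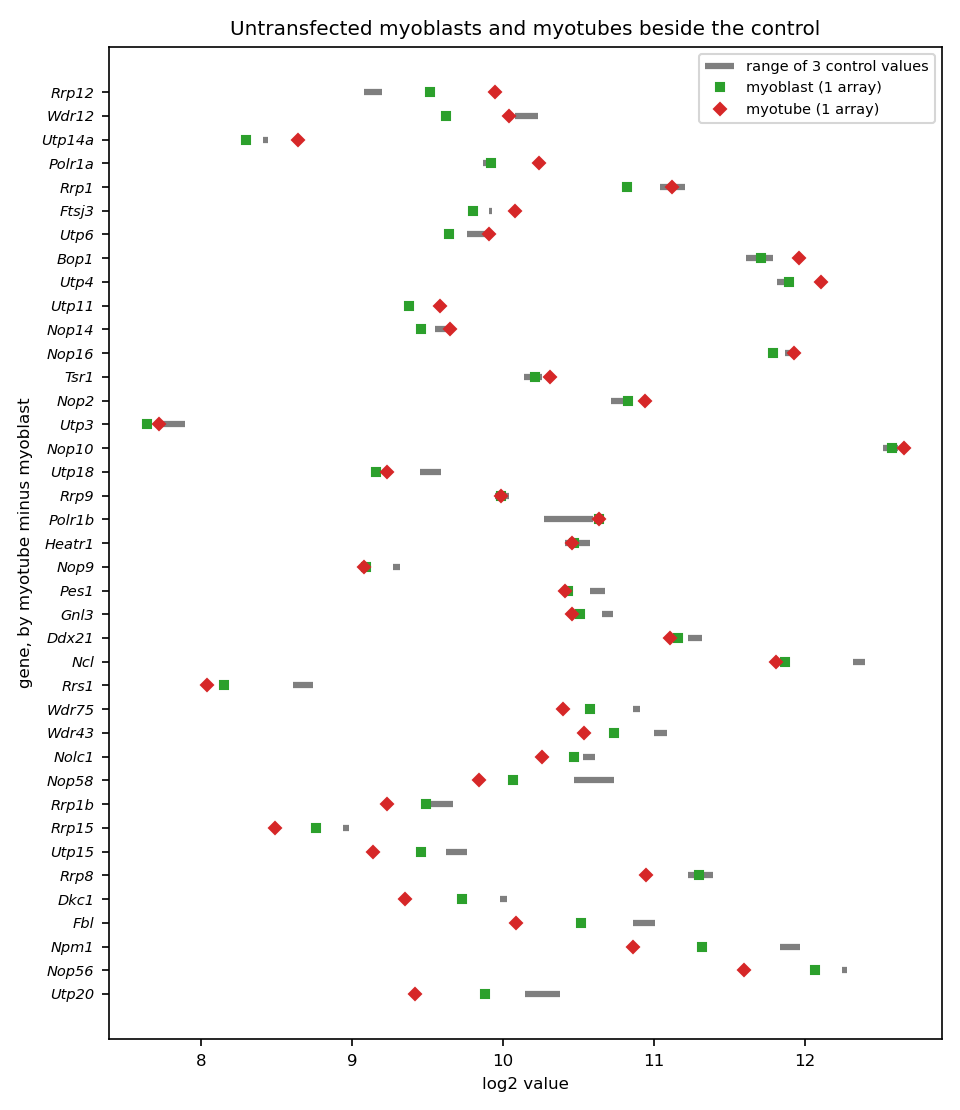
Log2 values (horizontal axis) of the 39 ribosome biogenesis genes (rows, ordered by myotube minus myoblast) in the single myoblast array (squares), the single myotube array (diamonds) and the range of the 3 control values (grey bars). The myoblast lies below the control range in 26 genes, and the differences between myotube and myoblast span -0.47 to 0.43.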

How the data were processed

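The authors deposited log2 values of 29 arrays (whole-transcript gene arrays). Affymetrix Expression Console 1.1 and its RMA routine produced them, per the submitters' processing notes; RMA corrects background, normalizes quantiles and summarises probes. A genome build was not given in the sources used here. They were used as deposited. Values ran from 2.35 to 14.65, with array medians of 7.24 to 7.39. Precision is limited by how few arrays there are.

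Of 35556 probe sets, 21789 had 1 symbol. For each gene, limma 3.58.1 under R 4.3.3 fitted 24 values by their 8 groups, with a variance trend. P values were adjusted by Benjamini-Hochberg over 19938 genes per comparison, with a threshold of 0.05, 2-sided. Control arrays were averaged with the technical repeat of their number, and the consensus correlation of these pairs was 0.607. Replicates are separate experiments per the labels.

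Members, lists and naming rules were chosen with earlier results of these data known. Named genes are those called (up to 8 lower and 3 higher per mimic), the extremes of other comparisons and those in counts of 5 or fewer. The code was tested on simulated data.

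Same-numbered samples had a mean r of 0.240 between their deviations from group means, over 0.1 in 75 of 84 pairs. All 3 pairs with the control were over 0.1 for miR-22, miR-29a, miR-34a and miR-365. Alternatives covered repeats, samples, block, centring, dim genes, probe sets, variance trend and single replicates. RefSeq tables of GRCm38.p6 gave positions and sequences.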

Additional observations from a re-analysis of the deposited data

How the results depend on the processing

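Of 532 alternative fits of the 38 called pairs, 475 kept the direction and the side of the threshold, 57 kept only the direction and 0 reversed. Calls under every alternative remained for 23 of the 38 pairs. With the replicate number as a block, lower genes under miR-34a went from 7 to 15, under Let-7b from 5 to 11, under miR-365 from 3 to 5 and under miR-29a from 3 to 5, higher genes under miR-365 from 2 to 7 and under miR-145 from 0 to 1, and genes called for miR-29a against the other 6 from 3 to 7. It moved no other count by over 1.5 times. The numbers did not meet the pairing rule for miR-1, miR-145 and Let-7b. With only 2 groups in the model, lower genes were 11 under miR-34a, 8 under Let-7b and 1 under miR-145, and higher genes 6 under miR-365. With the technical pairs as a random block, lower genes were 11 under miR-34a and 9 under Let-7b. Without the repeats, 1 was higher under miR-365. Without a variance trend, 1 was lower under miR-145. Without the lowest 40% of genes, 11 were lower under miR-34a. Centring arrays on their medians moved the miR-22 median from -0.07 to -0.12. At the looser fold, 7 genes were lower and 3 higher in the myotube. The causes were not tested.

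Leaving out 1 sample at a time gave lower counts of 1 to 3 (miR-1), 6 to 7 (miR-34a), 4 to 9 (miR-22), 3 (miR-365), 1 to 3 (miR-29a), 1 to 2 (miR-145) and 2 to 7 (Let-7b), and higher counts of 4 to 8 (miR-1) and 2 (miR-365). Against the other 6 it gave 8 to 22 (miR-1), 7 to 14 (miR-34a), 5 to 8 (miR-22), 12 to 18 (miR-365), 2 to 3 (miR-29a), 6 to 12 (miR-145) and 7 to 12 (Let-7b) calls. Medians ranged over 0.05 to 0.12 (miR-1), -0.21 to -0.12 (miR-34a), -0.11 to -0.06 (miR-22), 0.03 to 0.11 (miR-365), -0.14 to -0.01 (miR-29a), -0.01 to 0.06 (miR-145) and -0.19 to -0.09 (Let-7b). The F test called 21 to 31 genes without 1 replicate number and 35 without the technical repeats. The shares of all genes in these fits were not examined.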

Other observations

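A list of 11 measured genes for nucleotide, amino acid and polyamine supply held several that were lower than the control. Umps, which completes uridine monophosphate synthesis, was lower under miR-1 by -0.95 ± 0.09 (SE; limma's adjusted p = 1e-07), under miR-22 by -0.59 ± 0.09 (adjusted p = 0.00011) and under miR-34a by -0.38 ± 0.09 (adjusted p = 0.0076). Under miR-34a, 6 of 11 were lower and 0 higher, where 6.06% of all genes were lower and 5.62% higher, with Gart, a purine synthesis gene, the lowest at -0.62. Under miR-1, 3 of 11 were lower and 1 higher, with a median of -0.05. Cad, the first enzyme of pyrimidine synthesis, was the deepest of these genes under miR-145 at -0.63 ± 0.08 (adjusted p = 4.7e-05). Impdh1, a guanine nucleotide synthesis gene, went the other way under miR-1 at 0.51 ± 0.08 (adjusted p = 7.4e-05), while it was lower under miR-29a at -0.45 ± 0.08 (adjusted p = 0.00089).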
